A study of Danio rerio with 9 samples.

Results

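Keratins and claudins, the genes of the epidermal cytoskeleton and of the tight junction, were taken from the table of 32520 Ensembl genes as every gene whose name began with krt followed by a digit or the letter t, or with cldn, without regard to case and without the krtcap genes. The rule used names and no measured value, and it gave 62 genes, 20 keratins and 42 claudins. Of these, 16 keratins and 28 claudins had a mean of at least 1 FPKM (fragments mapped to a gene, scaled to its transcript length and to the mapped fragments of the sample) over all samples and were tested. The remaining 4 keratins (krt18a.2, krt93, krt95 and krt98) and 14 claudins lay under that level.

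The samples were 9 pools of 5 heads each from wild-type Tübingen zebrafish larvae at the long-pec stage (2 days post-fertilization), separated at the lower border of the hindbrain, with 3 pools per group. Conventionally raised (CV) larvae were not sterilised and kept their microbes. Germ-free (GF) larvae were given gentamicin and washed in hypochlorite between shield stage and 60% epiboly. Metabolite-treated (ZM) larvae were derived germ-free in the same way and then received a filter-sterilised extract of metabolites from adult zebrafish guts. GF and ZM therefore share the sterilisation, and in a comparison with CV the loss of microbes and the sterilising treatment cannot be told apart. The labels number the pools 1 to 3 and do not say whether they came from separate clutches, so every p-value measures only the spread between these pools.

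Keratins are the intermediate filaments of epithelial cells, built from pairs of a type I and a type II protein, and their expression differs between the layers of the skin. Claudins are membrane proteins that join neighbouring cells in the tight junction, where barrier-forming claudins seal the space between cells and pore-forming claudins let selected ions through. The skin of a zebrafish larva has an outer periderm over a layer of basal keratinocytes, and it surrounds the head, so RNA of a dissected head includes both layers together with the epithelia of the mouth, ear and gill region and the vessels of the brain.

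In such bulk samples, fewer cells of a type and less RNA per cell cannot be told apart. Read depth cannot be recovered from these FPKM. Keratin genes and the claudin genes are each close copies of one another, several of them in tandem, so reads could have been divided between neighbours, and the values of single members are uncertain to that extent. CLDN5, CLDN10 and CLDN11 are symbols that the name table gives to 2 Ensembl genes each, and these are told apart here by their identifiers. CLDND1 and cldnd1a, claudin domain containing genes, entered by their names. CV 2 and the third samples stood apart. Leaving out CV 2 took the genes passing the test from 1 to 2497 in GF against CV and from 0 to 2519 in ZM against CV. The third sample of each group was high in epcam. Values without these samples are therefore given for keratins and claudins where results rest on them. No such values are given for single genes outside the families, among them TP63, LAMA5, col7a1, tjp1b, ELAVL3 and nefma. As a check of the tissue, the matched brain markers ELAVL3, NEUROD1 and GFAP summed to 235 to 338 FPKM in CV, 200 to 229 FPKM in GF and 149 to 221 FPKM in ZM, and the 3 matched trunk and tail genes of 9 listed summed to 3.40 to 5.72 FPKM. The 7 matched gut and pancreas genes of 8 listed summed to 52.5 to 133 FPKM, and 4 of them had a mean of at least 1 FPKM. These were ins at 33.7 to 83.4 FPKM, FABP2 at 10.3 to 45.7 FPKM, prss1 at 2.12 to 12.8 FPKM and ela2l at 0 to 10.8 FPKM. RNA of some genes known from trunk organs was thus measured in the samples labelled head, and its source was not tested.

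Keratin RNA was abundant in the dissected heads. The type II keratin krt4, whose promoter is widely used to label the outer skin of zebrafish, had the highest mean of all 32520 genes. Its level was 7194, 7238 and 6930.2 FPKM in CV 1 to 3, 8012, 7672 and 8689 FPKM in GF 1 to 3, and 7811, 6972 and 7887 FPKM in ZM 1 to 3. krt4 alone made up 63.8% to 68.1% of the keratin sum, and the keratins together made up 1.48% to 1.90% of the summed FPKM of a sample.

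Below krt4 came krt1-19e (mean 1604 FPKM, range 1186 to 2017 FPKM), a type I keratin also called krtt1c19e whose promoter labels basal epidermal cells, and krt91 (mean 1028 FPKM, range 737 to 1219.5 FPKM). The type II keratin krt8 (mean 432 FPKM) and the type I keratins krt18a.1 (mean 192 FPKM) and krt18b (mean 68.2 FPKM) carry the names of the filament pair of simple epithelia. The ratio of krt8 to the sum of krt18a.1, krt18a.2 and krt18b lay between 1.47 and 1.75 in 8 samples and was 2.09 in GF 3. krt5, named after the mammalian type II keratin of basal keratinocytes, averaged 244 FPKM with the widest range among the 10 highest keratins relative to its level, from 152 to 465 FPKM.

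The order of the keratins was clear only in places. The ranges over the 9 samples did not overlap between krt4 and krt1-19e, between krt91 and krt8, between krt18a.1 and krt97, between krt18b and krt17, and between krt94 and KRT222. All other neighbours in the order overlapped, among them krt97, krt15, krt92 and krt18b, whose means ran from 105 down to 68.2 FPKM. At the low end, krt99 averaged 3.75 FPKM, krt98 and krt18a.2 averaged 0.169 and 0.174 FPKM, and krt95 was listed at 0 in all samples.

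Claudins were far less abundant per length than the leading keratins and summed to 0.0767% to 0.104% of the FPKM of a sample. The highest was cldni, with a mean of 135 FPKM and a range of 109 to 182 FPKM, which made up 21.5% to 24.9% of the claudin sum. It was the only claudin whose range did not overlap that of the next one. Behind it came cldnb (mean 74.0 FPKM), known from the transgene that labels the lateral line and skin, cldne (52.1 FPKM), cldn7b (44.3 FPKM), CLDN5 of ENSDARG00000014059 (41.0 FPKM), cldn1 (38.3 FPKM), cldn8.2 (27.5 FPKM) and CLDN11 of ENSDARG00000020031 (25.1 FPKM), each overlapping its neighbours.

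Some claudins known from tissues other than the skin were low. cldnk, the claudin of zebrafish myelinating glia, averaged 1.82 FPKM, cldn15a averaged 1.54 FPKM, CLDN2, a pore-forming claudin in mammals, averaged 0.977 FPKM, and both CLDN10 genes stayed at or under 0.714 FPKM in every sample. cldn18 was listed at 0 in all samples.

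**Figure D1:**
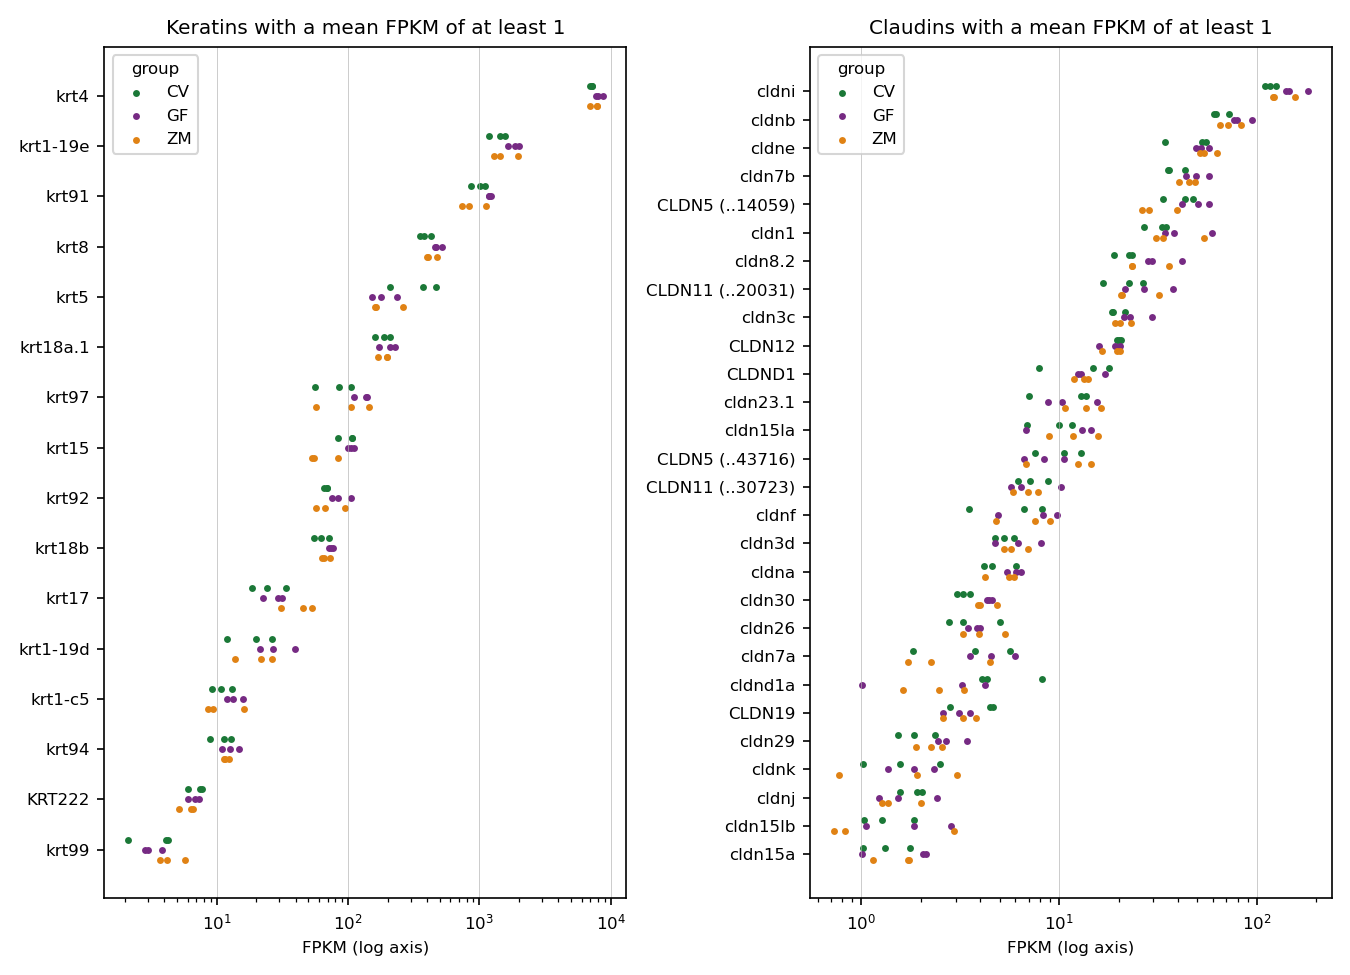
FPKM on a log axis of the 16 keratins (left) and 28 claudins (right) with a mean of at least 1 FPKM, ordered by their mean, with 1 point per pool of heads and the colour giving the group. krt4 stands apart at 6930.2 to 8689 FPKM, cldni is the only claudin clear of its neighbour, and the CLDN5 and CLDN11 genes carry the last 5 digits of their identifiers.

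The first comparison, GF against CV, asked how heads of larvae raised without microbes differed from conventional heads. Most keratins and most claudins had higher means in GF, but no member passed the test (limma on log2(FPKM + 1), adjusted p under 0.05 over 15904 genes). The median log2 fold change was 0.22 over the 16 keratins and 0.23 over the 28 claudins, beside 0.02 over all genes tested. The mean was higher in GF for 13 of 16 keratins and 22 of 28 claudins, beside 51.9% of all genes. krt5 was the clearest exception, with a lower mean in GF. Without CV 2 the keratin median was 0.31 and the claudin median was 0.33, beside 0.08 over all genes. Of 8 listed brain markers 3 matched, and their sum was lower in every GF sample than in any CV sample. Only ELAVL3 of the 3 lay lower without overlap. ELAVL3, a gene of early neurons, measured 113, 53.8 and 148 FPKM in CV 1 to 3 and 29.7 to 41.9 FPKM in GF, a log2 difference of -1.39 (SE 0.30, limma adjusted p = 0.0531). NEUROD1 (0.04) and GFAP (-0.10) overlapped between GF and CV, so the lower sum rested on ELAVL3. The part of brain content in the keratin and claudin values was not tested.

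Only 1 gene in the table, or 0.00629%, passed that threshold, so looser counts are given beside their backgrounds. At an unadjusted p under 0.05, 2 keratins and 6 claudins had higher values in GF, where 4.7% of all genes did so, and 1 keratin and 1 claudin had lower values, where 18% of all genes did so. The lower member counted with the claudins was cldnd1a, a claudin domain containing gene that entered by its name. All GF samples lay above all CV samples for 6 keratins and 6 claudins, beside 9.14% of all genes, and for no member did all GF samples lie below all CV samples, beside 17.7% of all genes. The FPKM of a whole sample summed to 587431 to 657383 in CV and 666444 to 704307 in GF, so every GF sum exceeded every CV sum. Overlap was read on the deposited values, here and for the single members below, and not at equal sums. With each sample rescaled to an equal sum of FPKM, 2 members were lower and 0 were higher at that p, against 2 lower and 8 higher without rescaling, and the shares of all genes were 20.9% lower and 1.13% higher. Without CV 2 there were 2 lower and 10 higher members, beside 19.7% and 11.4% of all genes. Equal-sum rescaling shifted the median of all genes from 0.02 to -0.09 and quantile normalization shifted it to 0.12. Relative to it, the keratin median was 0.21 higher as deposited, 0.19 higher at equal sums and 0.05 higher after quantile normalization, and the claudin median was 0.21 higher in each of these.

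Of the keratins, krt8 measured 356, 428 and 376 FPKM in CV 1 to 3, 461, 469 and 517 FPKM in GF 1 to 3, and 474, 409 and 401 FPKM in ZM 1 to 3. No CV sample reached the lowest GF sample, and ZM spanned both groups. GF exceeded CV by 0.32 on the log2 scale (SE 0.12, limma adjusted p = 0.158). krt1-19e measured 1435, 1558 and 1186 FPKM in CV and 1654, 1855 and 2017 FPKM in GF, again without overlap, a log2 fold change of 0.41 (SE 0.18, limma adjusted p = 0.216).

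The most abundant keratin differed little. All GF samples of krt4 lay above all CV samples, yet its log2 fold change was only 0.19 (SE 0.13, limma adjusted p = 0.445). Its sign turned under quantile normalization (-0.05). That step gives genes of equal rank equal values in every sample, so it could not show a direction for the gene with the highest mean. krt97 had the largest positive difference of the family at 0.68 (SE 0.32, limma adjusted p = 0.239), from 105, 86.1 and 56.3 FPKM in CV 1 to 3 to 136, 138 and 112 FPKM in GF 1 to 3, and was 0.43 without CV 3. krt91 and krt92 also had GF samples above all CV samples.

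krt5 differed from the rest of its family. It measured 370.4, 208 and 465 FPKM in CV 1 to 3, 178, 152 and 235 FPKM in GF 1 to 3, and 161, 261 and 165 FPKM in ZM 1 to 3. CV 1 and CV 3 were above all 6 other samples of GF and ZM, while CV 2 lay among them. On the log2 scale GF lay at -0.83 against CV (SE 0.30, 95% interval -1.5 to -0.16, limma adjusted p = 0.130), and ZM lay at -0.79 against CV (SE 0.30, limma adjusted p = 0.168). Without CV 2 krt5 passed the threshold in both comparisons, at -1.16 (limma adjusted p = 0.0158) and -1.12 (limma adjusted p = 0.0235), when 2497 and 2519 of all genes passed as well. Without CV 3 the GF value was -0.58 (limma adjusted p = 0.428).

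Among the claudins, cldn8.2 had the largest positive difference. It measured 22.6, 18.9 and 23.4 FPKM in CV 1 to 3, 29.5, 28.3 and 42.0 FPKM in GF 1 to 3, and 23.5, 23.5 and 35.9 FPKM in ZM 1 to 3. The third GF and ZM samples were well above the others. Neither GF nor ZM overlapped CV, but ZM 1 and ZM 2 (23.465 and 23.464 FPKM) only just exceeded CV 3 (23.434 FPKM). Relative to CV, the GF value was 0.58 higher on the log2 scale (SE 0.21, limma adjusted p = 0.123), and 0.40 higher without GF 3 (limma unadjusted p = 0.0803).

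The most abundant claudin, cldni, measured 117, 125 and 109 FPKM in CV 1 to 3, 140.2, 146 and 182 FPKM in GF 1 to 3, and 120.3, 122 and 155 FPKM in ZM 1 to 3. GF lay above CV throughout, and the ZM mean fell between theirs with samples overlapping both. The difference between GF and CV was 0.40 on the log2 scale (SE 0.15, limma adjusted p = 0.130). cldnb (0.35), cldn7b (0.38), cldn29 (0.40) and cldn30 (0.34) had differences of similar size without overlap, with limma adjusted p from 0.148 to 0.22. Without GF 3, cldni was at 0.29, cldnb at 0.26, cldn7b at 0.28, cldn29 at 0.43 and cldn30 at 0.32, krt8 at 0.27 and krt1-19e at 0.34, all at a limma unadjusted p above 0.05. cldnb and cldn3c, cldn3d, cldn29 and cldn30 are neighbours in the RefSeq annotation (assembly GRCz12tu), and all 5 had higher means in GF, by 0.20 to 0.40. Of all tested claudins, 22 of 28 had higher means. Another set of neighbours, cldne, cldnf, cldna and cldnj, was mixed, with 3 higher and 1 lower, from -0.08 to 0.30.

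In the other direction, cldnd1a measured 8.19, 4.07 and 4.34 FPKM in CV 1 to 3, 4.23, 3.22 and 1.005 FPKM in GF 1 to 3, and 2.48, 3.30 and 1.61 FPKM in ZM 1 to 3. GF 1 lay between CV 2 and CV 3, and the CV mean was raised by CV 1. On the log2 scale GF stood at -0.83 against CV (SE 0.37, limma adjusted p = 0.215) and ZM, whose samples did not overlap CV, at -0.89 (SE 0.37, limma adjusted p = 0.188). The GF value was -0.56 without CV 1 and -0.42 without GF 3.

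**Figure D2:**
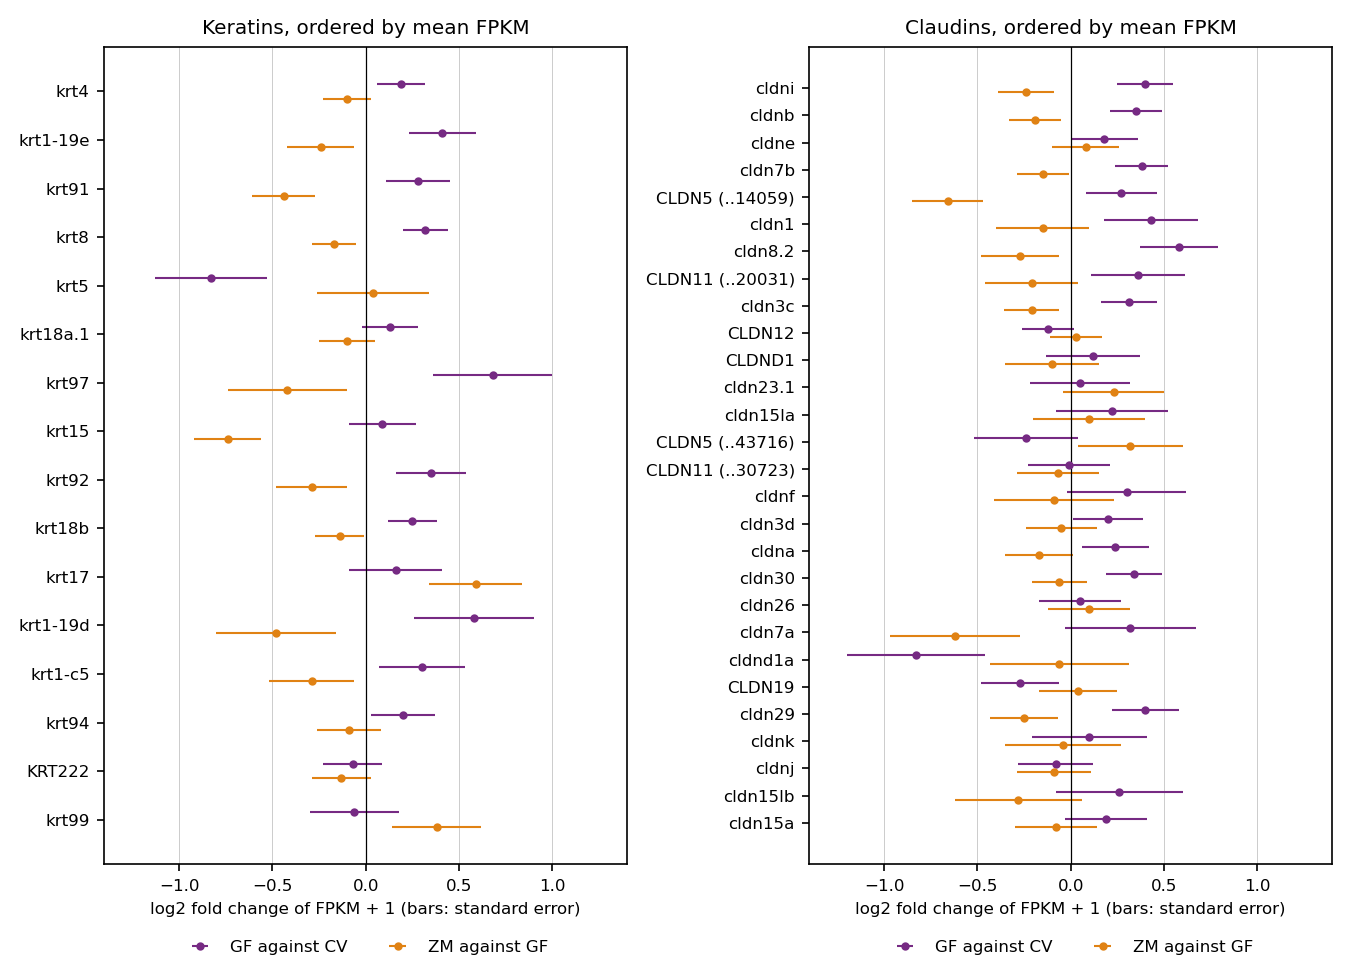
Log2 fold change of FPKM + 1 with its standard error from limma for each tested keratin (left) and claudin (right), ordered by mean FPKM, in GF against CV (purple) and ZM against GF (orange). Most purple points lie right of 0 and most orange points left of it. Both comparisons use the GF samples, so the points of a mirrored pair are not independent of each other. krt5 and cldnd1a lie farthest to the left in GF against CV at -0.83. The sign of krt4 in GF against CV turned under quantile normalization, which could not show a direction for the gene with the highest mean.

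The second comparison, ZM against GF, asked what the metabolite extract added to germ-free larvae. Most members had lower means in ZM, but no member passed the threshold (limma, adjusted p under 0.1 over 15904 genes). The median log2 fold change was -0.16 over the keratins, with 13 of 16 lower, and -0.09 over the claudins, with 21 of 28 lower, beside 0.00 over all genes. The claudin median was -0.19 without GF 2, -0.15 without GF 1 and -0.14 without ZM 3. A single gene of the table (0.00629%) passed. At an unadjusted p under 0.05, 2 keratins and 1 claudin had lower values, where 3.16% of all genes did so, and 1 keratin had higher values, where 2.55% of all genes did so. ZM lay wholly below GF for the same 2 keratins and 1 claudin, krt15, krt91 and CLDN5 of ENSDARG00000014059, beside 6.17% of all genes, and wholly above GF for no member, beside 10.4% of all genes. Members wholly below GF were thus about as frequent as among all genes. After median-of-ratios rescaling, 2 members were lower and 0 higher at that p, beside 3.92% and 2.87% of all genes.

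krt15, named after a mammalian type I keratin of basal keratinocytes, measured 107, 107 and 84.6 FPKM in CV 1 to 3, 106, 99.7 and 110.2 FPKM in GF 1 to 3, and 55.0, 53.2 and 83.8 FPKM in ZM 1 to 3. All ZM samples lay below all CV and all GF samples, although ZM 3 was just under CV 3. The log2 fold change was -0.74 against GF (SE 0.18, 95% interval -1.14 to -0.34, limma unadjusted p = 0.00200, adjusted p = 0.848) and -0.65 against CV (SE 0.18, limma unadjusted p = 0.00461, adjusted p = 0.156). These comparisons share the ZM samples. In the RefSeq annotation krt15 stands beside krt94, krt99, krt98 and krt93, and of the tested neighbours krt94 measured 11.4 to 12.5 FPKM in ZM and 10.9 to 14.8 FPKM in GF, while krt99 measured 3.67 to 5.69 FPKM in ZM and 2.84 to 3.84 FPKM in GF, so both overlapped.

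krt17, named after a mammalian keratin of skin appendages and wounds, had a higher mean in ZM. It measured 33.4, 24.3 and 18.5 FPKM in CV 1 to 3, 22.6, 29.5 and 31.6 FPKM in GF 1 to 3, and 30.8, 53.4 and 45.6 FPKM in ZM 1 to 3. ZM 2 and ZM 3 were above all other samples and ZM 1 was not. Its ZM samples stood at 0.59 on the log2 scale against GF (SE 0.25, limma adjusted p = 0.848) and 0.75 against CV (SE 0.25, limma adjusted p = 0.156). Without ZM 2 the first of these was 0.43.

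krt91 measured 1097, 1004 and 864.5 FPKM in CV 1 to 3, 1194, 1177 and 1219.5 FPKM in GF 1 to 3, and 1122, 737 and 835 FPKM in ZM 1 to 3. The 3 GF samples were closely alike and lay above every CV and ZM sample. Against GF, ZM stood at -0.44 on the log2 scale (SE 0.17, limma adjusted p = 0.848). krt91, krt17, krt1-19e, krt92 and krt1-19d are neighbours in the RefSeq annotation, and in ZM against GF krt17 had a higher mean while the other 4 had lower means, over a range of -0.48 to 0.59.

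CLDN5 is the main claudin of brain vessel endothelium in mammals. The gene ENSDARG00000014059 measured 33.5, 47.3 and 43.2 FPKM in CV 1 to 3, 50.6, 41.9 and 57.6 FPKM in GF 1 to 3, and 26.4, 39.6 and 28.4 FPKM in ZM 1 to 3. ZM lay below GF throughout, with ZM 2 just under GF 2. The log2 fold change in ZM against GF was -0.66 (SE 0.19, 95% interval -1.09 to -0.23, limma unadjusted p = 0.00645, adjusted p = 0.848).

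The other CLDN5 gene, ENSDARG00000043716, measured 7.58, 10.6 and 12.8 FPKM in CV 1 to 3, 10.6, 8.40 and 6.65 FPKM in GF 1 to 3, and 14.4, 12.5 and 6.80 FPKM in ZM 1 to 3. Its groups overlapped, with a log2 fold change in ZM against GF of 0.32 (SE 0.28, limma adjusted p = 0.897). It was 0.62 without ZM 3 (limma unadjusted p = 0.032, adjusted p = 0.419), 0.17 without GF 3 and 0.12 without ZM 1. The vessel markers on hand (8 of 10 matched) summed to 52.9 to 59.5 FPKM in GF and 53.7 to 58.4 FPKM in ZM. Of the 6 tested, 0 reached an unadjusted p under 0.05 in limma, beside 3.16% of all genes lower and 2.55% higher. cdh5, which defines endothelium, measured 4.69 to 6.96 FPKM in GF and 5.11 to 7.02 FPKM in ZM.

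Same-numbered GF and ZM samples deviated together over all genes, so the numbers were taken as pairs in this comparison. The pairing was read from these same data, and the labels do not state it. With the replicate number as a block and only GF and ZM in the fit, 9 members reached an unadjusted p under 0.05 in limma in place of 4, of which 7 were lower and 2 higher in ZM, and none passed the threshold. In the same fit 7.39% of all genes were lower and 9.67% higher at that p. The members added were cldn7a, krt99, cldn8.2, cldni and krt92. In that fit krt15 had an adjusted p of 0.196 and so did krt17, and CLDN5 of ENSDARG00000014059 had 0.226 (limma). cldn7a, a claudin of low level, measured 4.54, 3.53 and 5.95 FPKM in GF 1 to 3 and 1.71, 2.24 and 4.46 FPKM in ZM 1 to 3, so that each ZM sample lay below the GF sample of its number although the groups overlapped.

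**Figure D3:**
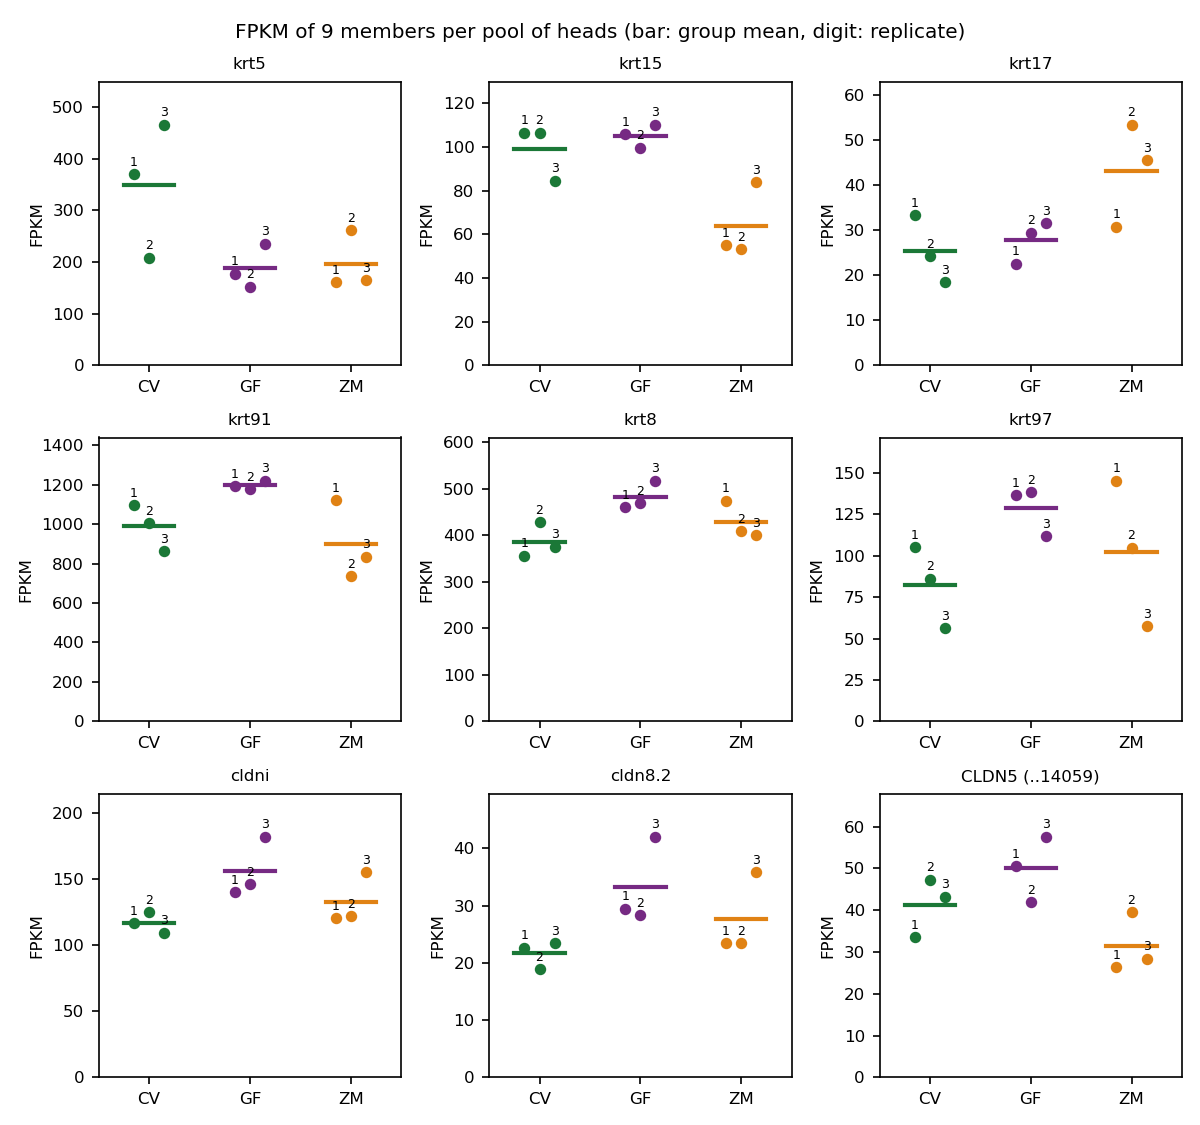
FPKM in each pool of heads for 6 keratins and 3 claudins, with the axis from 0, a point per sample, its replicate number above it and a bar at the group mean. krt5 is high in CV 1 and CV 3 (370.4 and 465 FPKM), krt15 is low in all ZM samples (53.2 to 83.8 FPKM), krt91 is highest in GF, and the third sample stands highest within GF and within ZM for cldni and cldn8.2.

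The third comparison, ZM against CV, shares its samples with the other pair of comparisons. No member passed the test at an adjusted p under 0.05 (limma, 15904 genes), and 0% of all genes did, although 2618 of them had lower and 1103 had higher values in ZM at an unadjusted p under 0.05. At that p, krt5 and krt15 and the claudin domain containing gene cldnd1a had lower values in ZM, where 16.5% of all genes did so. krt17 had higher values, where 6.94% of all genes did so. ZM lay wholly below CV for krt15 and cldnd1a, beside 13.3% of all genes. It lay wholly above CV for cldn30 and, by a very narrow margin, for cldn8.2, beside 8.51% of all genes. The median log2 fold change was 0.09 over the keratins with 12 of 16 higher, and 0.13 over the claudins with 20 of 28 higher, beside -0.05 over all genes. The keratin median changed sign with equal sums (-0.05, 5 of 16 higher) and after quantile normalization (8 of 16 higher), and the claudin median was 0.01 with equal sums, and 0.04 without CV 1, 0.05 without ZM 3 and 0.22 without CV 2. The median of all genes was -0.16 with equal sums, 0.07 after quantile normalization, -0.08 without ZM 3 and 0.02 without CV 2.

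The families can be set side by side sample by sample, as the median deviation of their members from each gene's mean over the 9 samples on the log2 scale. The keratin median was -0.05, -0.01 and -0.19 in CV 1 to 3, 0.11, 0.08 and 0.18 in GF 1 to 3, and 0.00, -0.06 and -0.02 in ZM 1 to 3. The claudin median was -0.21, 0.11 and -0.15 in CV 1 to 3, 0.12, 0.02 and 0.25 in GF 1 to 3, and -0.03, -0.02 and 0.11 in ZM 1 to 3. The keratin medians of GF lay above all those of CV and ZM, whereas CV 2 kept the claudin medians of CV and GF overlapping. The keratin median minus the claudin median stayed between -0.13 and 0.16 in all samples, from -0.12 to 0.16 in CV, from -0.07 to 0.06 in GF and from -0.13 to 0.03 in ZM, so the groups overlapped in that difference.

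The spread between replicates was also set side by side, without a test. The median SD of a keratin within a group on the log2 scale in CV, GF and ZM in turn was 0.196, 0.175 and 0.315, and that of a claudin was 0.240, 0.274 and 0.218, beside 0.270, 0.178 and 0.187 over all genes. The third sample was the highest of its group in CV, GF and ZM alike for 5 of 28 claudins (cldn1, cldn8.2, cldn15lb and both CLDN11 genes) and for 0 of 16 keratins, beside 8.75% of all genes. It was the highest in GF and in ZM for 14 claudins and 6 keratins, beside 17.2% of all genes. epcam, an adhesion protein of epithelia, was far higher in the third samples, at 223, 347 and 307 FPKM in CV, GF and ZM against 52.1 to 69.7 FPKM in the other samples. Its part in the claudin values was not tested. Without GF 3, 1 member (lower) in place of 10 reached an unadjusted p under 0.05 in GF against CV, and the shares of all genes at that p were 13.3% lower and 1.9% higher.

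**Figure D4:**
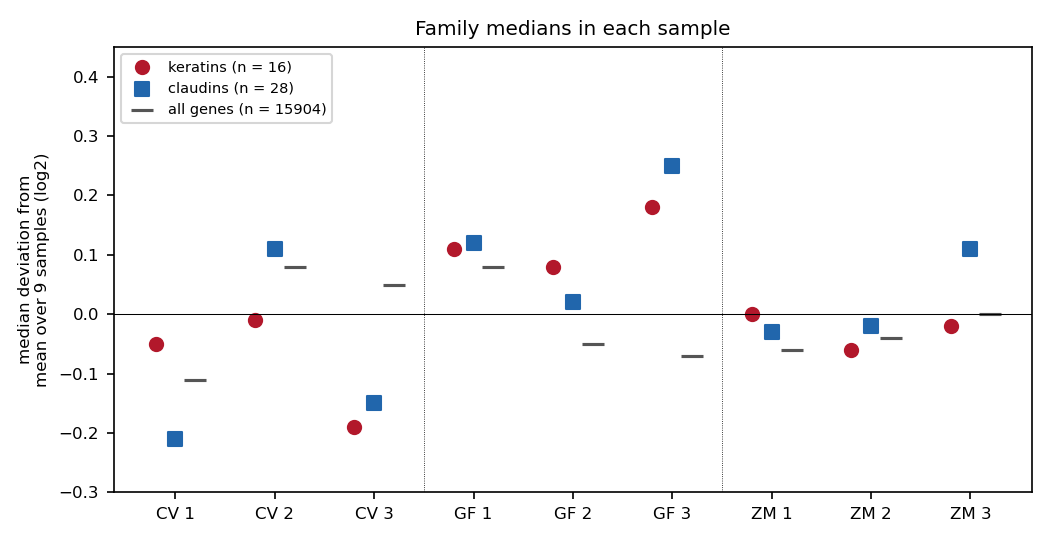
Median over the tested keratins (circles), claudins (squares) and all genes (bars) of the deviation from each gene's mean over the 9 samples, on the log2 scale, for each pool of heads. The keratins lie at 0.08 to 0.18 in GF and at or below 0.00 in CV and ZM, and the claudins range from -0.21 in CV 1 to 0.25 in GF 3.

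Other genes of the skin were read beside both families. All 9 tested periderm genes outside the families had higher means in GF than in CV, and 5 did so at an unadjusted p under 0.05 without overlap, beside the 4.7% of all genes given for that p. The agr1 gene measured 129, 171 and 149 FPKM in CV 1 to 3, 206, 273 and 253 FPKM in GF 1 to 3, and 230, 256 and 223 FPKM in ZM 1 to 3. Both germ-free derived groups thus lay above CV, GF by 0.70 on the log2 scale (SE 0.15, limma adjusted p = 0.0531). icn (0.42), icn2 (0.45), cfl1l (0.41) and the transcription factor gene grhl3 (0.35) were the others. The summed periderm genes reached 1690 to 2100 FPKM in CV, 2280 to 2840 FPKM in GF and 2210 to 2830 FPKM in ZM, and the part of periderm content in the keratin and claudin values was not tested. The periderm list also held members of the families, which these counts and sums leave out. Of these, krt5 had a lower mean in GF (-0.83), while krt4 (0.19), krt17 (0.16), krt1-19e (0.41), cldne (0.18) and cldnf (0.30) had higher means.

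Several genes of the basal layer had lower means in GF. krt5, which stands in the periderm list here but is named after a basal keratin, also had a lower mean. Of 9 tested genes of basal keratinocytes, 5 had lower values in GF than in CV at an unadjusted p under 0.05, beside the 18% of all genes given above, and none had higher values. TP63, the transcription factor that defines basal keratinocytes, measured 10.3, 6.21 and 15.5 FPKM in CV 1 to 3, 4.18, 4.42 and 6.11 FPKM in GF 1 to 3, and 5.84, 8.97 and 6.19 FPKM in ZM 1 to 3. CV 3 was highest and CV 2 lowest within CV, and ZM 2 was highest within ZM, as for krt5. Within GF the third sample was highest for both genes, but GF 1 was lowest for TP63 and GF 2 for krt5. The tight junction scaffold genes tjp1b and tjp3 also had CV 3 highest, CV 2 lowest and ZM 2 highest within their groups. The order within CV was also that of ELAVL3 and nefma, genes of neurons, so it was not particular to genes of the basal layer. For TP63, GF stood at -0.92 against CV on the log2 scale (SE 0.29, limma adjusted p = 0.0868). LAMA5 (-0.98), col7a1 (-0.80) and fras1 (-0.84), whose products lie in the basement membrane zone, and ITGB4 (-0.62) of the hemidesmosome were the other 4. Every GF sample of fras1 was under 1 FPKM (0.786 to 0.881 FPKM), and its highest value was 4.19 FPKM in CV 3. It thus met the mean of at least 1 FPKM only through samples outside GF, so its place among the 5 lower genes depended in part on that filter. epcam, itga6b, col17a1b and cdh1, the remaining members of that list, overlapped between GF and CV, and krt15 and krt1-19e, whose names or promoters belong to the basal layer, had no lower mean in GF. The summed basal list, in which epcam dominated the third samples, reached 122 to 336 FPKM in CV, 146 to 427 FPKM in GF and 135 to 379 FPKM in ZM, and its part in the krt5 values was not tested.

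**Figure D5:**
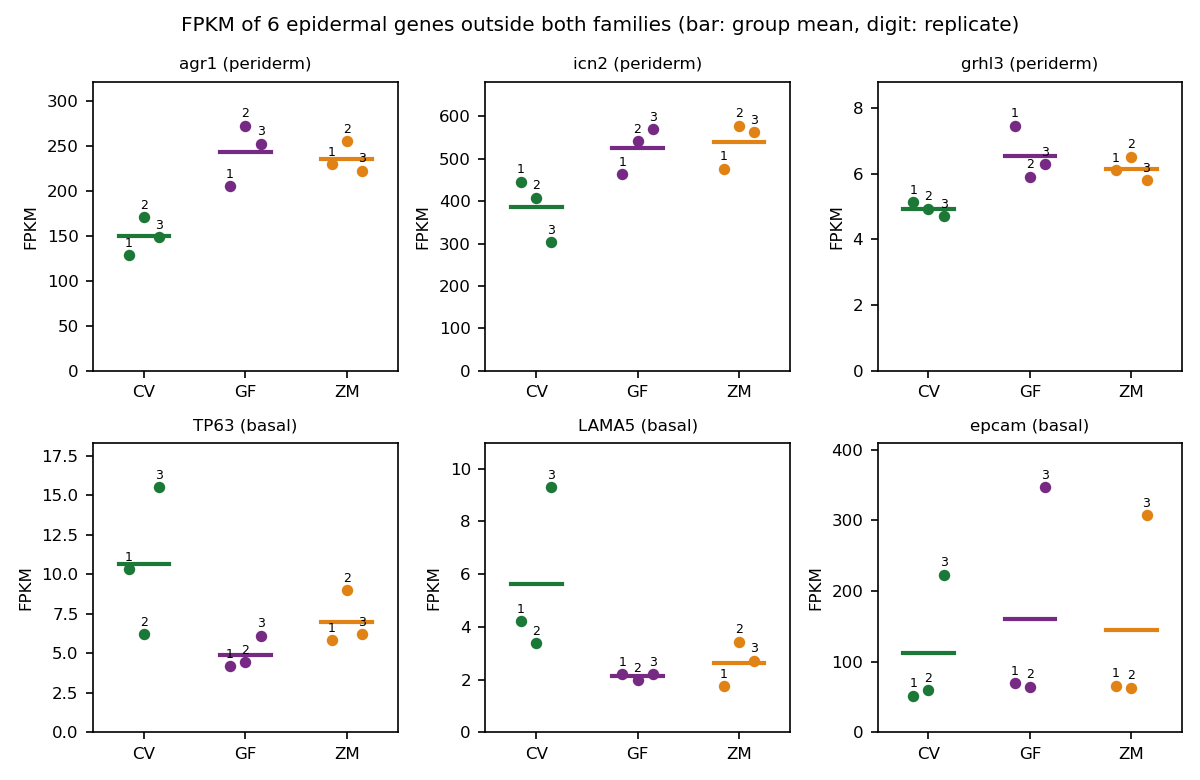
FPKM in each pool of heads for 3 periderm genes (upper row) and 3 genes listed for basal keratinocytes (lower row), with the axis from 0, a point per sample with its replicate number and a bar at the group mean. agr1 lies above CV in all GF and ZM samples (206 to 273 FPKM), TP63 is highest in CV 3 (15.5 FPKM), and epcam is high in the third sample of every group (223, 347 and 307 FPKM).

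Partners of both families were counted in the same way, without a test of the difference. Among 10 tested genes of the tight junction other than claudins, oclnb, an occludin, had higher values in GF than in CV at an unadjusted p under 0.05, while the scaffold genes tjp1b and tjp3 and the cingulin-like gene CGNL1 had lower values, beside 4.7% of all genes higher and 18% lower. oclnb measured 8.40, 8.72 and 8.41 FPKM in CV 1 to 3, 12, 11.1 and 11.4 FPKM in GF 1 to 3, and 8.98, 8.17 and 8.98 FPKM in ZM 1 to 3. GF stood apart from both other groups, at a log2 fold change of 0.39 against CV (SE 0.13, limma adjusted p = 0.0918). In ZM against GF oclnb, lower in ZM, was alone among the 10 in reaching an unadjusted p under 0.05, beside 3.16% of all genes lower. tjp1b measured 2.66, 1.19 and 3.90 FPKM in CV 1 to 3 and 0.653 to 0.904 FPKM in GF, with CV 2 again nearest to GF. Its log2 fold change was -0.93 (SE 0.27, limma adjusted p = 0.0716), with every GF sample under 1 FPKM. Of 19 listed tight junction genes 12 matched by name, and tjp1a, tjp2a and tjp2b were among those that did not.

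Of 17 listed genes of the desmosome and cell envelope, to which keratins are anchored, only 9 matched by name. Among those without a match were dspa, dspb, jupa, jupb, pkp1b, pkp3b and tgm1, so the structure was covered in part only. Of the 8 tested, 0 reached an unadjusted p under 0.05 in GF against CV by limma. The shares of all genes at that p were 18% lower and 4.7% higher. After adjustment 0 of the 8 passed, and 5 had higher means in GF. Among 12 tested regulators of the epidermis, ovol1a (0.49), ovol1b (0.51), grhl3 and spint1a (0.42) had higher values in GF at an unadjusted p under 0.05, and TP63 and TFAP2C (-0.50) had lower values. The 2 lower of 12 lay near the 18% of all genes, and the 4 higher stood beside 4.7%. grhl3 and TP63 were already counted in the periderm and basal lists. ovol1a measured 4.60 to 4.66 FPKM in CV, 6.17 to 7.51 FPKM in GF and 5.36 to 6.87 FPKM in ZM, the most even of these genes in CV.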

How the data were processed

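RNA was extracted from 9 pools of 5 heads and sequenced as directional poly(A) libraries. According to the sources, the authors checked reads with FastQC 0.11.8, aligned them to GRCz11 with HISAT2 2.1.0 and deposited StringTie 1.3.4d FPKM per gene, which are scaled to length and to the mapped reads of each sample. The authors' HTSeq 0.11.0 counts and DESeq2 1.29.13 results were not used here. The methods give a nominal depth for all libraries, but the reads per gene cannot be read from FPKM, so no interval for counting error is given. FPKM share a fixed total per sample only roughly, so a change in a few abundant genes can move the others.

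Genes with a mean of at least 1 FPKM over the 9 samples (15904) were fitted as log2(FPKM + 1), without rescaling, with limma 3.58.1 in R 4.3.3 (lmFit, contrasts.fit, eBayes with trend). All 9 samples entered a single model without a block, tests were two-sided and p-values were Benjamini-Hochberg adjusted over all genes. For low genes the added 1 makes differences on this scale smaller than the ratio of FPKM. Thresholds were 0.05 for GF against CV and ZM against CV and 0.1 for ZM against GF. The fit was tried on simulated data with less spread than the samples and with changes larger than any difference of a member. That check therefore gives no power or error rate for these data. Summaries used Python 3.11.15.

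The members and the gene lists beside them were chosen with earlier results of these data known, so lists are described by counts and medians. Members were named if among the 8 most abundant of their family, among the 5 largest fold changes of a comparison, at an unadjusted p under 0.05, or on a list of known members. Symbols came from a name table (29201 IDs with a symbol), and 53 of the 62 members matched a RefSeq symbol, which gave synonyms and neighbours. No sequence was used.

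Over all genes, the deviations of same-numbered samples from their group means correlated at 0.409, 0.466 and 0.616 between GF and ZM, at -0.0580, 0.146 and 0.316 between CV and GF, and at 0.0624, 0.0605 and 0.488 between CV and ZM. Numbers were taken to pair GF and ZM only. The pairing was read from the data, since the labels give only the number. Alternatives were a pseudocount of 0.1, no filter and a minimum of 5 FPKM, 3 rescalings, fits of only the groups compared, without trend, with group weights or with the replicate block, and each sample left out in turn. The block with only the groups compared was chosen after seeing the data.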

Additional observations from a re-analysis of the deposited data

How the results depend on the processing

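Family medians kept their sign in GF against CV and in ZM against GF under every alternative. The count of all genes called in GF against CV, 1 as reported, was 858 with a pseudocount of 0.1 (841 lower), 794 with group weights (787 lower), 0 without the filter and 0 to 2497 when a sample was left out (2497 without CV 2). In ZM against GF it was 0 in place of 1 without the filter, with each rescaling, with only these groups and without trend, and 0 to 1 when a sample was left out. In ZM against CV it was 0 to 2519 (2519 without CV 2). Members at an unadjusted p under 0.05 in GF against CV numbered 10 as reported, 2 with equal sums, 5 with group weights, and 1 (without GF 3) to 12 (without CV 2) when a sample was left out, with 2 without CV 3, 4 without CV 1, 5 without GF 2 and 6 without ZM 2. In ZM against GF they numbered 4, 2 after median-of-ratios rescaling, and 2 (without GF 1, GF 2 or ZM 2) to 10 (without ZM 3). In ZM against CV they numbered 4, and 2 (without CV 3 or ZM 1) to 4 with a sample left out.

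The keratin median in GF against CV, 0.22, was 0.10 with equal sums and 0.19 to 0.31 with a sample left out. In ZM against CV, 0.09, it was -0.052 with equal sums, -0.0043 after quantile normalization and 0.019 (without ZM 3) to 0.17 (without CV 2) with a sample left out, with 0.022 without CV 3. The claudin medians ran from 0.17 to 0.33 in GF against CV, from -0.19 to -0.066 in ZM against GF and from 0.041 to 0.22 in ZM against CV with a sample left out. krt4 turned to -0.05 in GF against CV and -0.16 in ZM against CV after quantile normalization, and to -0.06 in ZM against CV with equal sums. Quantile normalization could not show a direction for krt4, the gene with the highest mean. krt97 in ZM against CV ranged from -0.04 (without ZM 1) to 0.62 with a sample left out. The causes were not tested.

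The replicate block with all samples gave 1 gene called in GF against CV. The block with only the groups compared gave 1324 (1295 lower) there, with krt5 (adjusted p = 0.0143) and krt97 (adjusted p = 0.0364) among them in limma, although CV and GF numbers were not taken as pairs. In ZM against GF, where the numbers were taken as pairs, that block gave 2 genes called and 9 members at an unadjusted p under 0.05.

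Over 732 refits of the single differences named, 599 kept their side of an unadjusted p of 0.05 and their sign, 104 lost that p, 25 gained it and 4 changed sign. The 599 include differences that were above 0.05 and stayed there, and only those under 0.05 could lose it. In GF against CV, cldn29 lost it in 13 of 19 refits, krt1-19e in 13 of 20 and cldn30 in 12 of 19. The differences were picked from these data and all refits reuse the same samples. krt15 in both comparisons with ZM, and CLDN5 of ENSDARG00000014059 in ZM against GF, kept it in 20 of 20. With 3 samples per group and no read counts per gene used, small differences and members near 1 FPKM cannot be resolved.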

Other observations

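Among 13 tested intermediate filament genes outside the keratins, the neurofilament gene nefma had the most negative difference between GF and CV, at -1.18 on the log2 scale (SE 0.27, limma adjusted p = 0.0531), with 9.28, 4.04 and 9.58 FPKM in CV 1 to 3, 2.17 to 3.03 FPKM in GF and 2.18 to 2.91 FPKM in ZM. The lens filament gene BFSP2 measured 59.7, 85.5 and 53.8 FPKM in CV 1 to 3, 112, 88.6 and 84.8 FPKM in GF 1 to 3, and 49.0, 46.6 and 60.9 FPKM in ZM 1 to 3. ZM lay below GF throughout, and the log2 fold change of BFSP2 in ZM against GF was -0.85 (SE 0.19, limma unadjusted p = 0.0012, adjusted p = 0.848).

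Markers of skin ionocytes, which lie among the keratinocytes, summed to 38.5 to 54.3 FPKM in CV, 43.5 to 46.1 FPKM in GF and 41.8 to 54.1 FPKM in ZM. In GF against CV 0 of the 7 tested reached an unadjusted p under 0.05 in limma, beside 18% of all genes lower and 4.7% higher. Summed muscle markers ranged from 2720 to 8160 FPKM over the samples, with overlap between the groups. Summed erythrocyte markers were 1150 to 2660 FPKM in CV, 2200 to 2300 FPKM in GF and 2350 to 2910 FPKM in ZM, so that GF and ZM did not overlap.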
